A study of Mus musculus with 4 samples.

Results

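Oxidative phosphorylation (OXPHOS) is carried out by 5 protein complexes of the inner mitochondrial membrane. Its nuclear-encoded genes were examined here in the hippocampus after global cerebral ischemia (GCI). The members were all gene symbols beginning with Nduf followed by a, b, c, s or v (complex I), Sdha to Sdhd (complex II), symbols beginning with Uqcr (complex III), Cox4 to Cox8 (complex IV) and Atp5 (complex V). Of the 22609 symbols counted, 90 matched, of which 42 fell to complex I, 4 to complex II, 8 to complex III, 19 to complex IV and 17 to complex V. The rule also takes in 8 genes that are not subunits. These are the complex I assembly factors Ndufaf1 to Ndufaf4, the supercomplex factor Cox7a2l, and Cox4nb, Atp5s and Atp5sl, so that 82 members were subunits or their isoforms.

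RNA-Seq counts came from 4 hippocampus libraries of ovariectomized female mice aged 3 to 5 months, with 2 libraries for each genotype, FLOX+GCI and FBN-ARO-KO+GCI. FBN-ARO-KO mice carry a Cre/LoxP deletion of Cyp19a1, the aromatase gene, with Cre driven by the CaMKIIα promoter in excitatory neurons of the forebrain, and FLOX mice are their floxed controls. All mice had been ovariectomized 1 week before both common carotid arteries were occluded for 20 min, and RNA was taken after 24 h of reperfusion. Both groups had therefore undergone ischemia, and no sham library was analysed here. The FLOX+GCI libraries are also called controls, and the FBN-ARO-KO+GCI libraries knock-outs. The sources used here do not say that the libraries of a group came from separate mice, so p-values measure only the spread between these libraries.

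Counts on genes totaled between 24333396 and 33076795 per library, at which 3 counts correspond to between 0.0907 and 0.123 CPM (counts scaled to library size). This floor covers counting error only. Values per library below are CPM scaled by TMM, a normalization of library composition. Cyp19a1 itself had 4 and 1 counts among controls and 2 in each knock-out, which cannot check the genotype labels. The tissue label was met by markers of excitatory neurons, whose 6 genes summed to between 8105 and 8444 CPM in all 4 libraries. In whole tissue, fewer cells of a type and less RNA per cell cannot be told apart.

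Complexes I and II pass electrons from NADH and succinate to ubiquinone, complex III passes them to cytochrome c, complex IV passes them to oxygen, and complex V uses the resulting proton gradient to make ATP. Neurons depend heavily on this pathway, and its supply of oxygen is cut during ischemia and restored at reperfusion. Mitochondrial DNA encodes a few further subunits of complexes I, III, IV and V, which are not among the members.

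Most OXPHOS members were slightly lower in FBN-ARO-KO+GCI than in FLOX+GCI, and none passed the adjusted threshold. Of the 86 members with enough counts to be tested, 70 had a log2 fold change (FBN-ARO-KO+GCI minus FLOX+GCI) below 0, beside 51.3% of all 14527 genes tested. The median over members was -0.13, beside -0.01 over all genes tested. In edgeR's quasi-likelihood test, 0 of 86 members had an adjusted p under 0.05, the background being 0.0138% of genes, and the smallest adjusted p of a member was 0.238. An unadjusted p under 0.05 was reached by 25 members, all of them lower in FBN-ARO-KO+GCI, where 7.82% of genes tested were called lower and 8.72% higher. This count was 10 without FLOX+GCI replicate 2, beside 7.06% of genes called lower, and 7 without FBN-ARO-KO+GCI replicate 2, beside 3.17%. Both FBN-ARO-KO+GCI libraries lay below both FLOX+GCI libraries in 53 members, a pattern shown by 25.8% of genes, and above them in 5, shown by 25.9%. DESeq2 gave an adjusted p under 0.05 for 2 members, Uqcrq (adjusted p = 0.00752) and Ndufs7 (adjusted p = 0.0159), out of 70 members with an adjusted p (2.86%), beside 3.92% of all genes with one. In edgeR's test, Uqcrq was the 1 member with an adjusted p under 0.05 with the replicate number as a block, beside 1.27% of genes, and without FLOX+GCI replicate 1, beside 1.3%. With the block and GC content and length corrected for, 0 members passed, beside 0.0207% of genes.

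**Figure D1:**
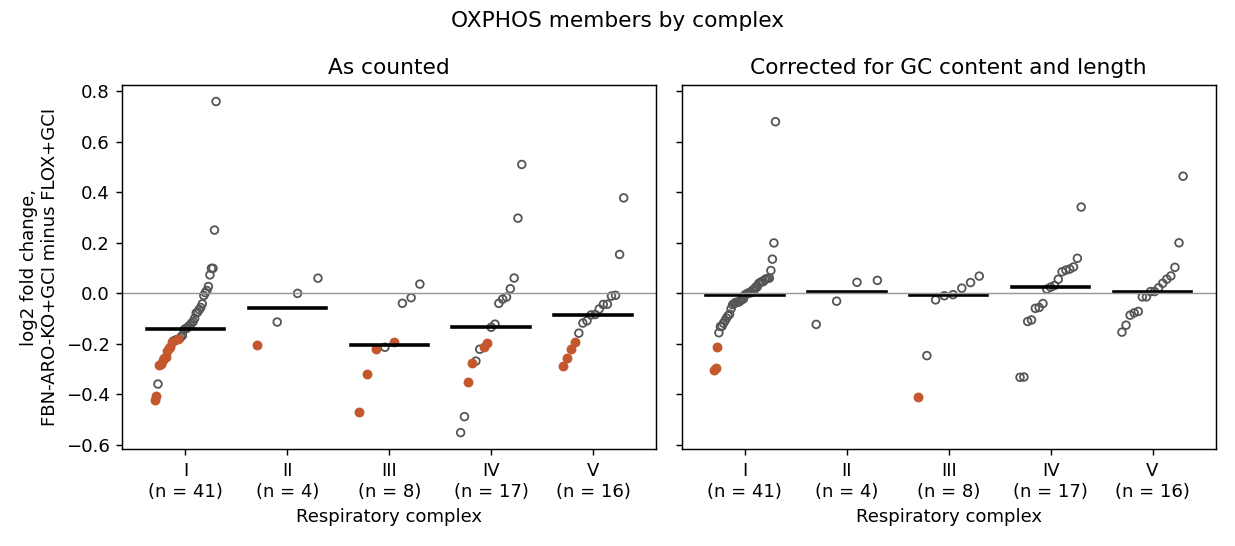
Each point is 1 tested member, placed by complex (horizontal axis) and log2 fold change, FBN-ARO-KO+GCI minus FLOX+GCI (vertical axis), as counted (left) and corrected for GC content and transcript length (right). Filled points have an unadjusted p under 0.05 and bars are medians, which lie between -0.20 and -0.06 on the left and between -0.01 and 0.02 on the right.

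By complex, the median log2 fold change was -0.14 in complex I, -0.06 in complex II, -0.20 in complex III, -0.13 in complex IV and -0.09 in complex V. Members lower in FBN-ARO-KO+GCI numbered 33 of 41 in complex I, 3 of 4 in complex II, 7 of 8 in complex III, 13 of 17 in complex IV and 14 of 16 in complex V. The differences between complexes were not tested. For all members together, the median deviation of a library from the gene mean was 0.06 and 0.08 (log2 CPM) in the FLOX+GCI libraries and -0.05 and -0.07 in the FBN-ARO-KO+GCI libraries. In complex II the libraries of the genotypes overlapped, at 0.01 and 0.05 for controls against -0.06 and 0.03 for knock-outs. Without FBN-ARO-KO+GCI replicate 1 the complex II median was -0.01, and without replicate 2 of that group it was -0.11.

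**Figure D2:**
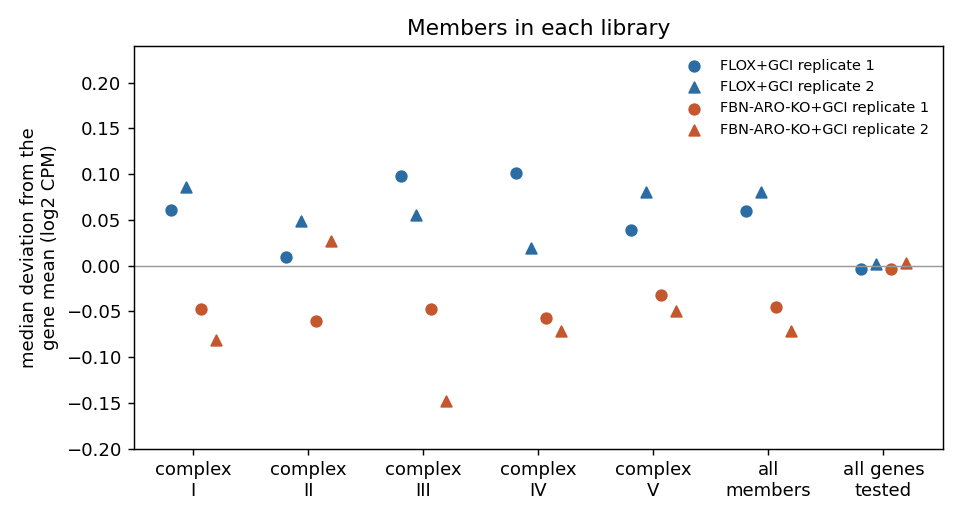
For each complex, for all members and for all genes tested (horizontal axis), the median deviation of a library from the mean of each gene over the 4 libraries is plotted in log2 CPM (vertical axis), with 1 point per library. For all members the FLOX+GCI libraries lie at 0.06 and 0.08 and the FBN-ARO-KO+GCI libraries at -0.05 and -0.07, while for all genes tested every library lies close to 0.

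Complex I holds the largest number of subunits, with nuclear-encoded core subunits that carry the flavin and the iron-sulfur clusters and many accessory subunits around them. Ndufs7, the core subunit with the last iron-sulfur cluster before ubiquinone, was the lowest member of the complex. Its gene lies at chr10:79711866-79719539 on the plus strand. Ndufs7 measured 88.6 and 80.8 CPM among controls against 65.0 and 61.3 CPM among knock-outs. Both FBN-ARO-KO+GCI libraries were below both controls, with a log2 fold change of -0.42 (SE 0.08, unadjusted p = 0.00131, adjusted p = 0.238). Ndufv1 binds NADH and the flavin at the start of the electron path. The control libraries held 213 and 222 CPM of Ndufv1 and the knock-out libraries 190.0 and 184 CPM. The groups did not overlap, with a log2 fold change of -0.22 (SE 0.07, unadjusted p = 0.0155, adjusted p = 0.248).

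Further core subunits of complex I were closer to their controls. Ndufs8, another carrier of iron-sulfur clusters, measured 83.4 and 87.8 CPM among controls against 79.9 and 70.2 CPM among knock-outs (log2 fold change -0.19, SE 0.09). Ndufs3 measured 29.2 and 29.6 CPM among controls against 26.3 and 25.4 CPM among knock-outs (log2 fold change -0.18, SE 0.09). Neither pair of groups overlapped. Ndufs1, the largest core subunit, measured 213 and 203 CPM among controls against 208 and 229.6 CPM among knock-outs (log2 fold change 0.07, SE 0.08). Ndufv2 measured 143 and 152 CPM among controls against 148 and 152 CPM among knock-outs (log2 fold change 0.03, SE 0.07). In both Ndufs1 and Ndufv2 the groups overlapped.

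Among the 28 tested accessory subunits of complex I, 24 were below 0, with a median of -0.14. The accessory subunits build the scaffold of the complex and are not part of electron transfer. Of these subunits, 9 had an unadjusted p under 0.05, all of them decreases, beside 7.82% of all genes tested called lower. In 22 both knock-outs lay below both controls, beside 25.8% of genes. Corrected for GC content and length, their median was -0.015 and 3 were called lower, beside 3.52% of genes. The groups then did not overlap in 10 lower and 3 higher subunits, beside 15.9% and 28.5% of genes. The assembly factors did not share a direction, with 2 below 0 and 2 above. Ndufaf3, which takes part in early assembly and lies at chr9:108468197-108469673 on the minus strand, was the lowest of them. Ndufaf3 measured 29.6 and 34.4 CPM among controls against 25.4 and 22.9 CPM among knock-outs. The groups did not overlap, with a log2 fold change of -0.41 (SE 0.12, unadjusted p = 0.00912, adjusted p = 0.238). Ndufa4, first counted with complex I and now placed in complex IV, measured 203 and 203 CPM among controls against 195 and 208 CPM among knock-outs (log2 fold change -0.01, SE 0.07). Ndufa4l2, its low-oxygen paralog, measured 2.12 and 2.23 CPM among controls against 1.81 and 1.57 CPM among knock-outs (log2 fold change -0.36, SE 0.26).

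Complex II is also the succinate dehydrogenase of the tricarboxylic acid cycle and is wholly nuclear-encoded. Sdha, its flavoprotein, measured 542 and 526 CPM among controls against 541 and 572 CPM among knock-outs (log2 fold change 0.06, SE 0.07). Sdhb, its iron-sulfur subunit, was lower in both FBN-ARO-KO+GCI libraries. The control libraries held 146 and 154 CPM of Sdhb and the knock-out libraries 132 and 128 CPM. This gave a log2 fold change of -0.21 (SE 0.07, unadjusted p = 0.0222, adjusted p = 0.251). The membrane anchor Sdhc measured 103 and 111 CPM among controls against 94.0 and 104 CPM among knock-outs (log2 fold change -0.11, SE 0.08). The other anchor, Sdhd, measured 108 and 106 CPM among controls against 104 and 109.8 CPM among knock-outs (log2 fold change -0.00, SE 0.07). In Sdha, Sdhc and Sdhd the groups overlapped.

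In complex III the median was -0.21 for the accessory subunits and -0.02 for the core ones, a difference that was not tested. All 5 accessory subunits were below 0, and in all 5 both FBN-ARO-KO+GCI libraries were below both controls, a pattern shown by 25.8% of genes. Corrected for GC content and length, the medians were -0.0099 for the accessory and -0.0055 for the core subunits. The groups then did not overlap in 2 lower and 2 higher accessory subunits, beside 15.9% and 28.5% of genes. Uqcrq, a small subunit beside cytochrome b, lies at chr11:53241424-53244333 on the minus strand and had the largest decrease among members past an unadjusted p of 0.05. Uqcrq measured 92.4 and 105 CPM among controls against 75.2 and 67.0 CPM among knock-outs. The groups did not overlap, with a log2 fold change of -0.47 (SE 0.10, unadjusted p = 0.00157, adjusted p = 0.238). Uqcr11, another small subunit, lies at chr10:79865742-79869575 on the minus strand. The control libraries held 73.0 and 69.1 CPM of Uqcr11 and the knock-out libraries 61.0 and 52.9 CPM. The groups did not overlap, with a log2 fold change of -0.32 (SE 0.09, unadjusted p = 0.011, adjusted p = 0.245).

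Among the core proteins of complex III, Uqcrc1 and Uqcrc2 form a pair of related subunits facing the matrix. Uqcrc1 measured 292 and 301 CPM among controls against 259.8 and 249.5 CPM among knock-outs. This gave a log2 fold change of -0.22 (SE 0.07, unadjusted p = 0.0137, adjusted p = 0.246). Its partner Uqcrc2 measured 287 and 303 CPM among controls against 288 and 316 CPM among knock-outs (log2 fold change 0.04, SE 0.08). The groups overlapped in Uqcrc2 and not in Uqcrc1. Uqcrfs1, the Rieske iron-sulfur protein, measured 127 and 121 CPM among controls against 119.8 and 125 CPM among knock-outs (log2 fold change -0.02, SE 0.07), also with overlapping groups.

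Complex IV is the oxygen-consuming step, and several of its nuclear subunits exist as tissue-specific isoforms. Cox5b, a zinc-binding subunit at chr1:36748332-36750230 on the plus strand, was the lowest of the common subunits. The control libraries held 30.9 and 31.0 CPM of Cox5b and the knock-out libraries 25.2 and 23.4 CPM. The groups did not overlap, with a log2 fold change of -0.35 (SE 0.10, unadjusted p = 0.00831, adjusted p = 0.238). Of the 10 common subunits 8 were below 0, beside 51.3% of genes, and 4 had an unadjusted p under 0.05, all decreases, beside 7.82% of genes called lower. Besides Cox5b these were Cox6a1 (a log2 fold change of -0.28 (SE 0.08, unadjusted p = 0.0107, adjusted p = 0.244)), Cox6b1 (a log2 fold change of -0.20 (SE 0.07, unadjusted p = 0.0326, adjusted p = 0.27)) and Cox8a (a log2 fold change of -0.21 (SE 0.07, unadjusted p = 0.0151, adjusted p = 0.248)). Cox4i1, the subunit through which ATP inhibits the enzyme, measured 493 and 499 CPM among controls against 460.1 and 443 CPM among knock-outs (log2 fold change -0.13, SE 0.07). Cox7a2 measured 125 and 129 CPM among controls against 126 and 132 CPM among knock-outs (log2 fold change 0.02, SE 0.07). Cox7b measured 108 and 117 CPM among controls against 111 and 108 CPM among knock-outs (log2 fold change -0.04, SE 0.07). Corrected for GC content and length, 3 common subunits were below 0 and 7 above, where 42.8% of genes were below 0. An unadjusted p under 0.05 was then reached by 0 of them, beside 11.4% of genes. The groups did not overlap in 1 lower and 4 higher subunits, beside 15.9% and 28.5% of genes. Cox4i1 then stood at 0.10, with both knock-outs above both controls.

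The common isoforms far exceeded their counterparts in level. Per kb of the longest annotated transcript, mean levels in FLOX+GCI were 730.3 ± 5.50 CPM for Cox4i1 and 1.07 ± 0.104 for the hypoxia- and lung-associated isoform Cox4i2. They were 414 ± 4.36 for Cox6a1 and 6.01 ± 1.53 for the muscle isoform Cox6a2, and 168 ± 4.56 for Cox7a2 and 4.09 ± 0.673 for the muscle isoform Cox7a1. Cox6b1 stood at 357 ± 18.4 and the testis isoform Cox6b2 at 3.13 ± 1.51, and Cox7b at 112 ± 5.71 and Cox7b2 at 0.706 ± 0.0607. Cox8a stood at 357 ± 1.48, while Cox8b, its muscle isoform, had between 2 and 7 counts per library and Cox8c had 0 in all 4, which allows a level of up to 0.0907 to 0.123 CPM. The isoforms of low level had log2 fold changes between -0.55 (Cox7a1) and 0.51 (Cox7b2), and the 5 tested ones had no unadjusted p under 0.05.

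Complex V consists of the catalytic F1 part and the membrane part with its ring of c subunits. All 5 F1 subunits were below 0, with a median of -0.08, beside 51.3% of genes below 0 and a median of -0.01. Atp5b, the catalytic β subunit, measured 1513 and 1500.4 CPM among controls against 1424 and 1419 CPM among knock-outs (log2 fold change -0.08, SE 0.06). Atp5a1, the α subunit, measured 1228 and 1155 CPM among controls against 1161 and 1149.7 CPM among knock-outs (log2 fold change -0.04, SE 0.07). Atp5c1, the central stalk, measured 199 and 202 CPM among controls against 197 and 200.2 CPM among knock-outs (log2 fold change -0.01, SE 0.07). The groups did not overlap in Atp5b and overlapped in the other two. The small F1 subunits Atp5e (a log2 fold change of -0.29 (SE 0.09, unadjusted p = 0.0165, adjusted p = 0.248)) and Atp5d (a log2 fold change of -0.26 (SE 0.07, unadjusted p = 0.00827, adjusted p = 0.238)) were the ones past an unadjusted p of 0.05, beside 7.82% of genes called lower. Corrected for GC content and length, 2 F1 subunits were below 0 and 3 above, where 42.8% of genes were below 0. An unadjusted p under 0.05 was then reached by 0 of them, beside 11.4% of genes. The c subunit is encoded by Atp5g1, Atp5g2 and Atp5g3, which yield the same mature protein. Atp5g3 measured 244 and 231 CPM among controls against 203 and 212 CPM among knock-outs (log2 fold change -0.19, SE 0.07), without overlap. Atp5g1 measured 4.43 and 4.42 CPM among controls against 4.71 and 3.62 CPM among knock-outs (log2 fold change -0.09, SE 0.21), and Atp5g2 held 5 and 10 counts among controls against 9 and 2 among knock-outs.

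**Figure D3:**
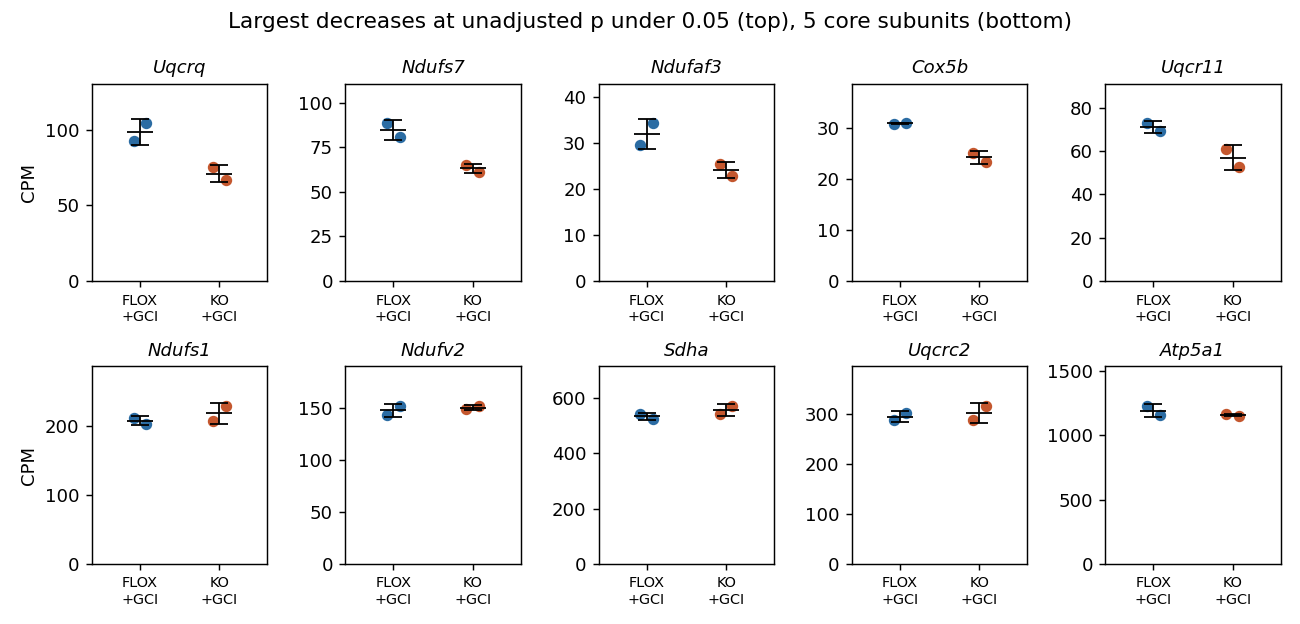
CPM (vertical axis, from 0) of 10 members in FLOX+GCI and FBN-ARO-KO+GCI (KO+GCI), with points for libraries and bars for mean ± SD (n = 2 per group). In the top row, the 5 members with the largest decreases among those past an unadjusted p of 0.05, both FBN-ARO-KO+GCI points lie below both controls, as for Ndufs7 at 65.0 and 61.3 CPM beside 88.6 and 80.8 CPM, and in the bottom row the groups overlap.

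Per kb, the levels in FLOX+GCI ran from 786 ± 4.61 CPM (SD, n = 2) for Atp5b, 730.3 ± 5.50 for Cox4i1, 446 ± 19.4 for Atp5a1 and 414 ± 4.36 for Cox6a1 to 412 ± 0.135 for Ndufa4, 357 ± 18.4 for Cox6b1, 357 ± 1.48 for Cox8a and 328 ± 12.9 for Atp5g3. Cox6a1 and Ndufa4, as well as Cox6b1 and Cox8a, differed by less than the spread between libraries. Levels per kb depend on the transcript chosen, and for 6 members (Atp5d, Atp5g1, Atp5sl, Ndufab1, Ndufb2 and Uqcrq) the longest transcript was over 1.5 times the one with the longest complete coding part.

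The decrease was larger in members of higher GC content. Over the 85 tested members with a transcript sequence, Spearman's rho between the GC content of the longest transcript and the log2 fold change was -0.69, and over the 13891 genes with one it was -0.55. These points share the same 4 libraries. In members with a GC content of 55% or more, 21 of 21 were below 0 with a median of -0.25, where genes of that range had a median of -0.17 and 84.2% below 0. In members from 48 to under 55%, 38 of 44 were below 0 with a median of -0.12, beside -0.01 and 54.0% for genes of that range. Under 48% the members were even, 10 below and 10 above, with a median of 0.00, beside 0.13 and 23.8% for genes of that range. Members were also short, with a median transcript length of 955 bases beside 3091 bases for all.

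Coding sequence of some members from complexes I and III is shown as an example of the contrast. Shown are 60 bases from the middle of the longest coding exon of the low members Ndufs7 and Uqcr11 and of the core members Ndufs1 and Uqcrc2, whose log2 fold changes lay near 0, in mm9, with G and C in capitals. They lie in coding exon 5 of 8 of Ndufs7 (chr10:79717644-79717703, plus strand), 2 of 2 of Uqcr11 (chr10:79866942-79867001, minus strand), 7 of 18 of Ndufs1 (chr1:63210303-63210362, minus strand) and 10 of 14 of Uqcrc2 (chr7:127794768-127794827, plus strand), and the share of G and C is 68.3%, 68.3%, 35.0% and 45.0%. The windows widen the contrast, since the longest transcripts of Ndufs7, Uqcr11 and Ndufs1 had 59.6%, 58.9% and 46.3%. Ndufv1, also lower at -0.22 and not shown, had 45.0% in its window and 56.7% in its transcript.
Ndufs7: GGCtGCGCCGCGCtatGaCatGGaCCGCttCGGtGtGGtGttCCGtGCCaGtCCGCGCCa
Uqcr11: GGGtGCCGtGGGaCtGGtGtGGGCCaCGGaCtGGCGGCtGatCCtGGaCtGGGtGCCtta
Ndufs1: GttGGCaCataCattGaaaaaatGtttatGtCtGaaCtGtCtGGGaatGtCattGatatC
Uqcrc2: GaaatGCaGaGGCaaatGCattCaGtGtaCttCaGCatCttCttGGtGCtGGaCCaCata

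A trend over GC content was also present between libraries of 1 genotype. Over all genes, rho was -0.48 for FBN-ARO-KO+GCI replicate 2 minus replicate 1 and 0.10 for the FLOX+GCI pair. Between genotypes it lay between -0.57 and -0.31 in the 4 pairs of libraries. With 2 libraries per genotype, a trend of the libraries and a difference of the genotypes that runs with GC content cannot be told apart.

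After a correction of each library for GC content and transcript length, the members lay evenly around 0, while all genes lay more often above 0. Of the 86 members, 43 were below 0, beside 42.8% of all genes, and the median was 0.00, beside 0.03 for all genes. An unadjusted p under 0.05 was found in 4 members, all lower, where 3.52% of genes were called lower and 11.4% in either direction. The groups did not overlap in 19 lower and 15 higher members, beside 15.9% and 28.5% of genes. The remaining difference between members and all genes was not tested. The correction takes away any difference between genotypes that runs with GC content or length, whatever its origin. Ndufs7 moved from -0.42 to -0.13, Ndufaf3 from -0.41 to -0.13, Cox5b from -0.35 to -0.11 and Uqcr11 from -0.32 to -0.01. Cox6a1 and Cox8a changed sign, to 0.02 and 0.10.

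The 4 members were Uqcrq, Ndufb2, Ndufc1 and Ndufb8, of which Ndufb2, Ndufc1 and Ndufb8 were singled out after their values were seen. Corrected values were -0.41 for Uqcrq (unadjusted p = 0.00169), -0.30 for Ndufb2 (unadjusted p = 0.00935, against 0.0904 as counted) and -0.31 for Ndufc1 (unadjusted p = 0.00916), by edgeR's quasi-likelihood test. Ndufb8 had no transcript in the annotation used, so its value of -0.21 (unadjusted p = 0.00972) holds no correction for its own sequence. With the transcript of the longest complete coding part, Uqcrq stood at -0.20 and Ndufb2 at 0.01, while Ndufc1 stayed at -0.32.

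**Figure D4:**
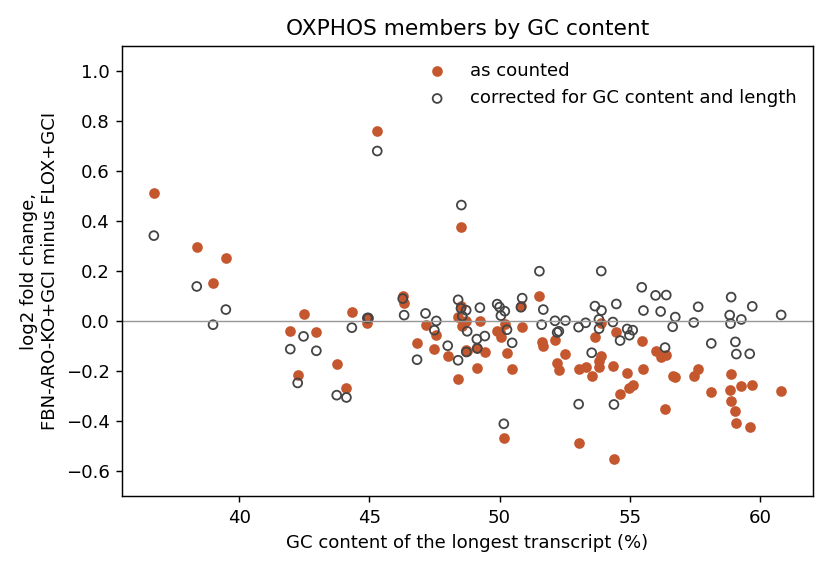
Each tested member with a transcript sequence (n = 85) is plotted by GC content of its longest transcript in percent (horizontal axis) and log2 fold change, FBN-ARO-KO+GCI minus FLOX+GCI (vertical axis), as counted (filled) and corrected for GC content and length (open). The filled points slope downward (rho = -0.69) and the open points do not (rho = 0.05).

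Some widely expressed subunits had almost no counts. Ndufs5, an accessory subunit of complex I, had 0 counts in all 4 libraries. Atp5l, a membrane subunit of complex V, had between 0.160 and 0.406 CPM, Cox7c, of complex IV, between 0.241 and 0.717 CPM, and Ndufab1, the mitochondrial acyl carrier protein, between 0.758 and 1.74 CPM. Ndufab1 had the highest log2 fold change of the tested members, 0.76 (SE 0.35, unadjusted p = 0.0663, adjusted p = 0.328), from 0.758 and 0.974 CPM among controls to 1.21 and 1.74 CPM among knock-outs, and was singled out after its values were seen. Reads were 50 nt long. Entries recorded as aligning to more than 1 place, which were not counted on genes, made up between 35.1% and 36.5% per library. This is a share of gene counts and counters of unassigned reads together. Whether such a read is entered once or once per place is not given in the sources used here. For the transcript with the longest complete coding part, the share of 50-base windows with an exact copy elsewhere in mm9 was 100% for Atp5g2, 89.4% for Atp5l, 86.8% for Atp5g1, 80.0% for Ndufs5, 71.5% for Cox7c and 43.7% for Ndufab1. Of 89 members, 12 had at least 40% of windows copied. Their median level in FLOX+GCI was 8.28 CPM per kb of that transcript, beside 111 for the other 77, as a description. Atp5h (67.9%), Cox5b (62.7%) and Uqcrb (61.5%) stood between 42.6 and 74.6 CPM per kb. Among the 46 tested members with under 10% of windows copied at up to 2 mismatches, the median log2 fold change was -0.14.

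For Ndufs5 and Atp5g2 the shared sequence is shown. Each stretch is the first 50-base window of the coding part that has an exact copy outside the gene, in mm9. Every base is shared with the copy, so none is in capitals. The window of Ndufs5 lies at chr4:123393273-123393322 (minus strand) with its copy at chr16:42955744-42955793, and that of Atp5g2 at chr15:102496237-102496286 (minus strand) with a copy at chr17:5816552-5816601.
Ndufs5: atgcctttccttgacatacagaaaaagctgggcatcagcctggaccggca
Atp5g2: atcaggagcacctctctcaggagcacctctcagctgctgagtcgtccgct

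The copy of Ndufs5 belongs to BC002163, annotated as a pseudogene at chr16:42955740-42956176, which differs from the Ndufs5 transcript by 2 mismatches over 437 aligned bases. While Ndufs5 was listed at 0, BC002163 held 347 and 907 counts among controls against 1245 and 1103 among knock-outs. Which of both loci gave these reads was not tested.

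**Figure D5:**
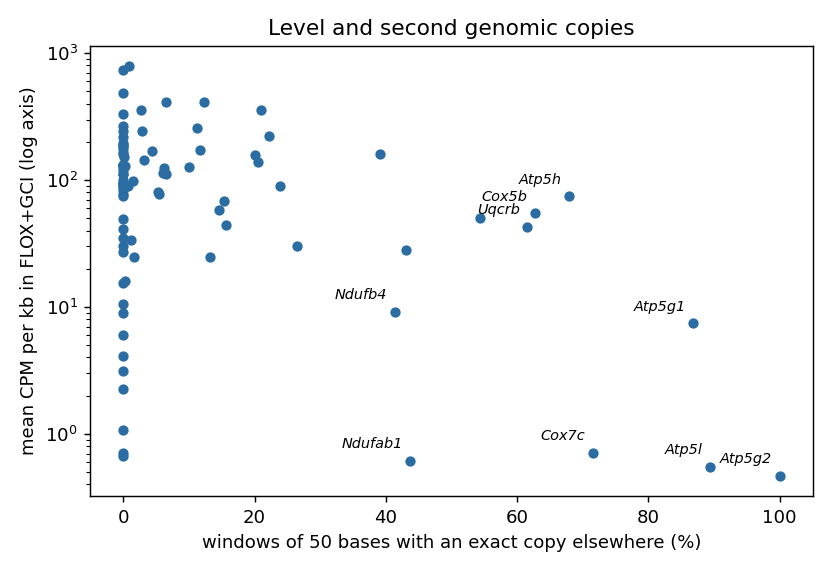
Members with counts are plotted by the share of 50-base windows of the transcript that have an exact copy elsewhere in mm9, in percent (horizontal axis), and mean CPM per kb of that transcript in FLOX+GCI (vertical axis, log scale). Atp5g2 (100%) and Atp5l (89.4%) lie at the bottom right, and Atp5h (67.9%) lies at 74.6.

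Promoters of OXPHOS genes are known for sites of NRF1, ETS factors such as GABPA, and YY1, which act with PGC-1 coactivators in mitochondrial biogenesis. RefSeq promoters of GRCm38.p6 (250 bases before to 50 after the start) were matched for 74 of 90 members. Both strands were searched. A gene with several promoters was counted if any of them held the motif. The NRF1 motif CGCATGCG was present for 10 of 74 members (13.5%), beside 2.07% of all 27025 genes. AAGATGGCG, for YY1, was present in 10.8% beside 1.64%, and CCGGAAGT, for ETS factors, in 6.76% beside 4.31%. TCAAGGTCA, for ERR factors, was present in 2.70% beside 0.466%, and TGACGTCA, for CREB, in 5.41% beside 2.03%. With the promoter of highest GC content taken for each gene, the median was 58.8% over members beside 53.3% over all genes. A match is a description of these letters only. Shown are stretches of 30 bases in the strand of the gene, with the NRF1 motif in capitals, for members from complexes I, IV and V whose log2 fold changes ran from -0.28 to 0.25. They lie at chr17:56717692-56717721 (plus strand), chr5:115349101-115349130 (minus strand), chr16:84835105-84835134 (minus strand) and chr4:24897960-24897989 (plus strand).
Ndufa11: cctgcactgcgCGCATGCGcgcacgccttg
Cox6a1: caggaacggggCGCATGCGcgctctcgctc
Atp5j: aggccagaataCGCATGCGtacagtgcagt
Ndufaf4: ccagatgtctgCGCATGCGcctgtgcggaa

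The log2 fold changes of these NRF1-motif members were -0.28 for Ndufa11, -0.28 for Cox6a1, -0.12 for Atp5j and 0.25 for Ndufaf4, and were chosen to show this range. Of all 10 members with the motif 9 were tested, of which 7 were below 0, with a median of -0.18. Among 18 regulators of mitochondrial biogenesis, 12 were above 0 with a median of 0.06, where 51.3% of genes were below 0. Gabpa was the 1 with an unadjusted p under 0.05, beside 8.72% of genes called higher and 16.5% in either direction. Gabpa measured 25.3 and 26.7 CPM among controls against 31.9 and 39.4 CPM among knock-outs, with a log2 fold change of 0.45 (SE 0.12, adjusted p = 0.238), and 0.26 after the correction. Its gene overlaps Atp5j on the opposite strand, and whether HTSeq used strand is not given in the sources used here. Polrmt, the mitochondrial RNA polymerase, had -0.22 (SE 0.09, adjusted p = 0.305).

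Other gene groups placed the members among their neighbors. Of 5 further OXPHOS genes, Cyc1 had -0.21 (SE 0.08, adjusted p = 0.274) and Atpif1 -0.19 (SE 0.07, adjusted p = 0.256), and the 5 had a median of -0.05. Of 26 assembly factors outside the symbol rule, 14 were below 0 with a median of -0.01, with Ttc19 at 0.27 (SE 0.08, adjusted p = 0.244) and Foxred1 at -0.26 (SE 0.10, adjusted p = 0.262). Coenzyme Q synthesis had 8 of 11 below 0, a median of -0.04 and Coq4 at -0.17 and Coq9 at -0.13. The tricarboxylic acid cycle with pyruvate dehydrogenase had 8 of 17 below 0 and a median of 0.05, with Mdh2 at -0.20 and Pdhb at 0.13, and carriers and outer membrane proteins had 7 of 16 below 0 and a median of 0.01, with Tomm70a at 0.18 and Tomm40 at -0.16.

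Groups of short genes outside the pathway were also lower. Of the mitochondrial ribosome, 53 of 74 were below 0 with a median of -0.07, with Mrps26 at -0.38 and Mrps18b at -0.80. Of the cytosolic ribosome, 47 of 68 were below 0 with a median of -0.16, with Rplp1 at -0.36 and Rplp0 at -0.58. Its 81 genes were not all tested. In the longest transcript, a median of 50.7% of their 50-base windows had an exact copy elsewhere, beside 0.06% for OXPHOS members. Of the proteasome, 25 of 38 were below 0 with a median of -0.07, with Psmb10 at -0.54 and Psmd3 at -0.19. After the correction these medians were -0.00 for the mitochondrial ribosome, -0.03 for the cytosolic ribosome and 0.01 for the proteasome. In none of these lists did a gene pass an adjusted p of 0.05 in edgeR's test.

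Markers of other cell types also differed between libraries. The 6 endothelial markers were all below 0 with a median of -0.34, and summed to 232 and 160 CPM among controls against 187 and 134 CPM among knock-outs. Of the 6 pericyte and smooth muscle markers 5 were below 0, with sums of 259 and 178 CPM and of 207 and 128 CPM. Both sums overlapped between genotypes. Oligodendrocyte markers summed to 3886 and 4400 CPM among controls against 4453 and 4579 CPM among knock-outs, with 5 of 6 above 0, and both knock-outs lay above both controls. For interneurons the sums ran from 998 and 939 CPM to 908 and 915 CPM, without overlap. Of these 6 markers 3 were below 0 and 3 above, with a median of -0.05. For astrocytes the sums ran from 4732 and 4986 CPM to 4934 and 5658 CPM, with 4 of 6 markers above 0. Microglia summed to between 243 and 283 CPM, hippocampal field markers to between 1059 and 1120 CPM, choroid plexus markers to between 42.7 and 62.1 CPM, muscle markers to between 22.6 and 28.6 CPM, and erythroid markers to between 1.84 and 4.15 CPM, with the globin genes listed at 0. The part of these cell types in the values of the OXPHOS members was not tested.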

How the data were processed

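Hippocampal RNA was measured in 4 libraries, 2 per genotype, grouped by their labels. The authors sequenced 50 nt single-end reads (bcl2fastq), aligned them to mm9 with TopHat2 2.0.8b and deposited unnormalized counts per gene symbol from HTSeq, per the submitters' processing notes. The HTSeq version, strand setting and annotation release are not given in the sources used here. Counters of unassigned reads, between 43.4% and 45.5% of gene counts and counters together, were left out.

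Genotypes were compared across all genes with edgeR 4.0.16 in R 4.3.3 (quasi-likelihood test, TMM, filterByExpr with a minimum count of 10, Benjamini-Hochberg adjustment). SEs were approximated from each log2 fold change and its F statistic. With 2 against 2 libraries, the smallest two-sided p of an exact permutation test is 0.333. GC content and length came from the longest coding transcript in GENCODE M1 (mm9). Their correction fitted natural splines with 5 degrees of freedom to the deviation of each library from the gene mean (prior count 2) and entered edgeR as an offset. Window copies were found by exact match and with BLAST+ 2.17.0. Scripts were tested on simulated data. Alternatives were DESeq2 1.42.0, other scalings and filters, a replicate block, and leaving out 1 library at a time.

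Genes were named by rule, namely members with an adjusted p under 0.05, the 5 with the largest change in each direction among those with an unadjusted p under 0.05 and no overlap (none qualified above 0), core subunits, isoform sets, members below the filter, and the 2 smallest p-values in each related list. A gene that this rule names is not reported here. The members and lists were chosen with earlier results of these data known. Atp5d, Atp5e, Atp5h, Atp5j, Atp5l, Cox7c, Ndufa11, Ndufab1, Ndufaf4, Ndufb2, Ndufb8, Ndufc1 and Uqcrb fall outside this rule and were named after their values were seen.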

Additional observations from a re-analysis of the deposited data

Results flagged for a closer look

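Reads listed under BC002163, the annotated pseudogene that copies Ndufs5, lie outside the OXPHOS members and were higher in FBN-ARO-KO+GCI (37.6 ± 0.0677 CPM, SD, n = 2) than in FLOX+GCI (25.3 ± 16.2 CPM, SD, n = 2). The control libraries held 13.8 and 36.8 CPM, so the distance to the knock-outs rests on FLOX+GCI replicate 1. In edgeR's quasi-likelihood test the log2 fold change was 0.57 (SE 0.36, adjusted p = 0.441).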

How the results depend on the processing

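No member had an adjusted p under 0.05 in edgeR's test, and 2 of 70 had one in DESeq2, beside 3.92% of genes. The replicate numbers of the labels are not said to mark a litter, batch or day, and same-numbered libraries deviated together with a correlation of 0.13. With the replicate number as a block, 1 of 86 members (Uqcrq) had an adjusted p under 0.05, beside 1.27% of genes, and with the block and the correction for GC content and length 0 members did, beside 0.0207%. The direction of all complex medians held in DESeq2, where complex IV had -0.16, with library totals (-0.094 in complex II, -0.24 in complex III and -0.17 in complex IV), and with every gene of at least 1 count (-0.16 in complex IV). When GC content and length were corrected for, 43 members were higher and 4 had an unadjusted p under 0.05, all lower, beside 3.52% of genes. In 34 members the groups did not overlap (19 lower and 15 higher, beside 15.9% and 28.5% of genes). The medians were -0.0014 over all members, -0.0067 in complex I, 0.0061 in complex II, -0.0077 in complex III, 0.024 in complex IV and 0.0067 in complex V. Adding the replicate block to the correction gave 43 higher members and, in the same order, medians of -0.00071, -0.0072, 0.0058, -0.0079, 0.024 and 0.0068. With the other transcript choice, chosen after seeing the data, 37 members were higher, 5 had an unadjusted p under 0.05, and the medians were -0.018, -0.020, -0.013, -0.025, 0.0055 and -0.020. Under these corrections Cox6a1 had 0.024, 0.024 and 0.0055 and Cox8a had 0.096, 0.094 and 0.077. The cause was not tested. Members with few copied windows and subunits only, also chosen after seeing the data, had medians of -0.14 and -0.14. Leaving out 1 library at a time gave 0 to 1 adjusted calls (Uqcrq, without FLOX+GCI replicate 1, beside 1.3% of genes) and 7 to 25 members with an unadjusted p under 0.05, and medians of -0.0055 to -0.11 in complex II, -0.14 to -0.25 in complex III and -0.089 to -0.16 in complex IV, the lone library being assumed to vary like the other group. Atp5g2, Cox8b, Cox8c and Ndufs5 had too few counts to be tested.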
